A study of Mus musculus with 4 samples.

Results

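Pyruvate dehydrogenase (PDH), the enzymes of the tricarboxylic acid (TCA) cycle, the regulators of PDH and the enzymes that feed or drain the cycle are encoded by the 34 genes described here. The genes were chosen by name as a list of the pathway, and all 34 were found among the 37620 genes of the raw count table and among the 15462 that the authors' filter on low expression kept. The cells were R1 mouse ESCs of strain 129/Sv, either wild type (WT) or with the Cripto gene knocked out (Cripto KO). Cripto, encoded by Tdgf1, is a membrane-anchored co-receptor of the Nodal ligands. Cells of each genotype were taken from serum/LIF, labelled as ESCs, or after 6 days in N2B27 medium that held bFGF and 20 ng per ml of Activin (F/A), labelled as EpiSCs, which models the ESC→EpiSC transition from naive to primed pluripotency. The F/A cells had been plated sparsely, and they left a serum medium for a defined one, so medium, density, growth factors and time in culture cannot be told apart within a transition. The study describes more than 1 Cripto KO clone, and which of them was sequenced is not given in the sources used here.

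Each of the 4 cultures gave 1 RNA-seq library, so no value below has a replicate error and no single condition could be tested against another. Only the part of a change that both genotypes, or both cultures, share could be tested, with libraries that are not replicates. A change is given as the log2 ratio of the authors' quantile-normalized counts, with a 95% exact (Clopper-Pearson) interval of the ratio from the raw counts, which covers counting error only. A gene was called changed where the ratio was at least 2-fold either way and the interval lay on the same side of 1. Less RNA per cell and fewer cells of a type cannot be told apart in such bulk samples.

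Raw counts on genes summed to between 15230856 and 17315442 per library. Tdgf1 had 18714 raw counts in WT serum/LIF and 1572 in WT F/A, against 945 and 86 in the matching Cripto KO libraries, a log2 change of -4.13 in serum/LIF and -4.15 in F/A. Nearly all counts of the F/A Cripto KO library were even, with 0.016% odd against 53.1% to 53.6% elsewhere, and its counts were therefore divided by 2 for the intervals. The summed level of 7 naive ESC markers was 3310 and 2950 cpm (raw counts scaled to the library total) in serum/LIF, in WT and Cripto KO, and 29.7 and 46.1 cpm in F/A. The F/A sums rested mainly on Tbx3, with 290 and 536 raw counts, and Klf4, with 103 and 158. Zfp42 had 28 and 14 raw counts in WT F/A and Cripto KO F/A, Nr5a2 18 and 10, and Esrrb 13 and 8. Nr0b1 and Dppa3 had 0 in both. The summed level of 7 EpiSC markers was 1310 cpm in WT F/A and 700 cpm in Cripto KO F/A, while 5 trophoblast markers summed to 42.7 and 179 cpm and 4 mesoderm markers to 56.1 and 143 cpm in the same libraries. The trophoblast sum rested mainly on Hand1, with 196 and 1730 raw counts, and Cdx2, with 104 and 674. Gata3 had 238 and 252 raw counts in WT F/A and Cripto KO F/A, Tfap2c 110 and 160, and Elf5 2 and 0. Markers of primitive endoderm summed to 86.4 and 137 cpm there, of fibroblasts to 67.1 and 150 cpm and of neural cells to 14.8 and 16.5 cpm, and those of general pluripotency to 176 and 133 cpm against 2950 and 2580 cpm in serum/LIF. In raw counts, Gata4 had 831 and 1356, Gata6 465 and 798 and Sox7 20 and 10 in WT F/A and Cripto KO F/A. Pou5f1 had 1810 and 1216 there, Nanog 259 and 126, and Sox2 612 and 750. Of the fibroblast markers, Col1a1 had 504 and 1496 raw counts in WT F/A and Cripto KO F/A, Col1a2 376 and 694, Thy1 18 and 28, and Postn 124 and 138. In F/A, none of the EpiSC or mesoderm markers and 1 of the 5 trophoblast markers was at or under the detection floor of 3 counts (6 in Cripto KO). The marker levels come from the same F/A libraries as the differences given below and cannot be told apart from them. Their part in those differences was not tested.

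PDH, a large assembly in the mitochondrial matrix, turns pyruvate into acetyl-CoA and so joins glycolysis to the TCA cycle. The kinases Pdk1 to Pdk4 phosphorylate and switch off its E1 subunit, and the phosphatases Pdp1 and Pdp2 reverse this. The cycle oxidises acetyl-CoA, pyruvate carboxylase refills it with oxaloacetate, and malic enzymes, glutamate dehydrogenase and the transaminases move carbon in and out. In pluripotent cells these enzymes are studied because primed cells are known to lean more on glycolysis than naive cells do.

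In the WT transition 5 of the 34 genes fell and 1 rose. The genes that fell were Pcx, Pdk4, Pdk1, Fh1 and Pdk2, and the gene that rose was Me3. The share that fell, 14.7%, stood beside 20.9% of all 15462 kept genes, and the share that rose, 2.94%, beside 22.0%. The median log2 change was -0.37 over the 34 genes and -0.07 over all genes, but -0.23 against 0.00 once a trend with transcript length, described below, was taken off. An interval below 1 was held by 23 of the 34 (67.6%, beside 44.4% of all genes) and one above 1 by 5 (14.7%, beside 39.2%). In the Cripto KO transition 4 genes fell, Pdk4, Pdk1, Pcx and Pdp2, which was 11.8% beside 18.5% of all genes, and 2 rose, Me3 and Me1, which was 5.88% beside 19.3%. Here the median of the 34 was -0.03, with 16 intervals below 1 (47.1%, beside 40.2%) and 12 above (35.3%, beside 35.9%). In each transition 28 of the 34 genes were not called. Most of all 15462 genes were not called either, 8837 of them in WT and 9621 in Cripto KO. In neither transition were 26 of the 34 genes called, and the matching share over all genes is not given here.

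The change from serum/LIF to F/A that the genotypes share was tested in 1 quasi-likelihood fit of the raw counts in edgeR, with culture and genotype as additive terms. The fit has 1 residual degree of freedom and takes the difference between the transitions as error, so it gives no test of that difference. At an adjusted p (Benjamini-Hochberg) under 0.05, 8 of the 34 genes were lower in F/A (23.5%, beside 25.4% of all genes), namely Pdk1, Pcx, Pdk4, Fh1, Pdhb, Got1, Ogdh and Me2. Higher in F/A were 3 genes (8.82%, beside 25.2%), Me1, Me3 and Aco1. Between Cripto KO and WT over both cultures, 0 of the 34 passed in either direction, beside 0.304% of all genes higher and 0.304% lower. At an unadjusted p under 0.05, 0 of the 34 passed too, beside 1.73% of all genes higher and 2.96% lower. With shares this small over all genes, 0 of 34 does not set the members apart.

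**Figure D1:**
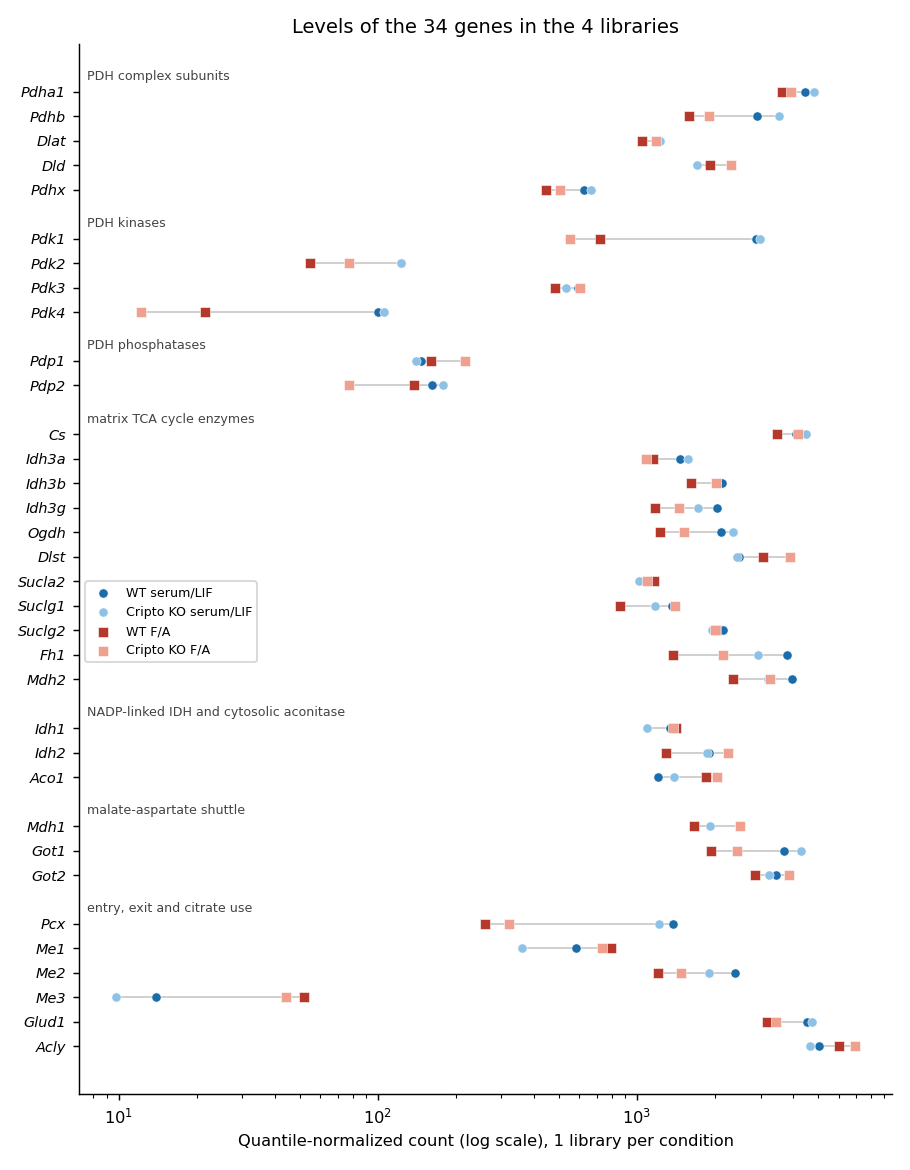
Quantile-normalized count of each of the 34 genes (log axis) in the 4 libraries, 1 point per library, grouped by role. The red F/A squares of Pdk1, Pdk4 and Pcx lie far to the left of the blue serum/LIF circles, those of Me3 to the right, and most other genes span less than 2-fold.

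Among the kinases of PDH, 3 of 4 fell in WT, beside 20.9% of all genes, and 2 in Cripto KO, beside 18.5%. Pdk1, on chromosome 2 of NCBIM37 (mm9) from 71711281 to 71741915, had 3026 raw counts in WT serum/LIF, 709 in WT F/A, 3014 in Cripto KO serum/LIF and 562 in Cripto KO F/A. Both F/A libraries lay far below both serum/LIF libraries, with a log2 change of -1.99 in WT (ratio 0.251, interval 0.231 to 0.273) and of -2.43 in Cripto KO (0.186, 0.164 to 0.21). Pdk4, the kinase best known from fasting, is on chromosome 6 from 5433351 to 5446309. It had 109, 20, 102 and 10 raw counts in the same order. Its log2 change was -2.22 in WT (ratio 0.215, interval 0.126 to 0.349) and -3.11 in Cripto KO (0.116, 0.0369 to 0.28), the wide intervals reflecting its low counts.

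Pdk2, a widely expressed kinase, had 133 raw counts in WT serum/LIF and 53 in WT F/A, and it fell by 1.17 on the log2 scale (ratio 0.445, interval 0.317 to 0.616). In Cripto KO it had 117 and 74 counts, and its log2 change of -0.65 was not called (ratio 0.635, interval 0.427 to 0.927). Without the trend with transcript length described below, the WT value was -0.84 and no longer called. Pdk3, the kinase encoded on the X chromosome, had 617, 463, 519 and 608 raw counts in WT serum/LIF, WT F/A, Cripto KO serum/LIF and Cripto KO F/A, and its log2 changes of -0.29 and 0.18 were not called.

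The make-up of the kinase transcripts differed between the cultures as a result. A share of a family's counts within 1 library does not depend on the scaling between libraries, and each carries an exact binomial interval. Pdk1 made up 77.9% (76.6% to 79.2%) of the raw counts of the 4 kinases in WT serum/LIF and 80.3% (79.0% to 81.6%) in Cripto KO serum/LIF. In F/A its share was 56.9% (54.1% to 59.7%) in WT and 44.8% (40.9% to 48.8%) in Cripto KO, and the intervals of the 2 F/A libraries did not overlap. Pdk3 took 15.9% and 13.8% in serum/LIF against 37.2% and 48.5% in F/A, WT first. Set against the 5 subunits of PDH itself, the kinases had 33.2 and 31.3 counts per 100 subunit counts in serum/LIF, and 14.8 and 13.1 in F/A. Counts grow with transcript length, so these shares compare libraries and not the kinases with each other. Per kilobase of the median annotated transcript, Pdk1 was at 778 and Pdk3 at 433 normalized counts in WT F/A, but with the union of exons as the length Pdk1 was at 92.8 and Pdk3 at 188.

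**Figure D2:**
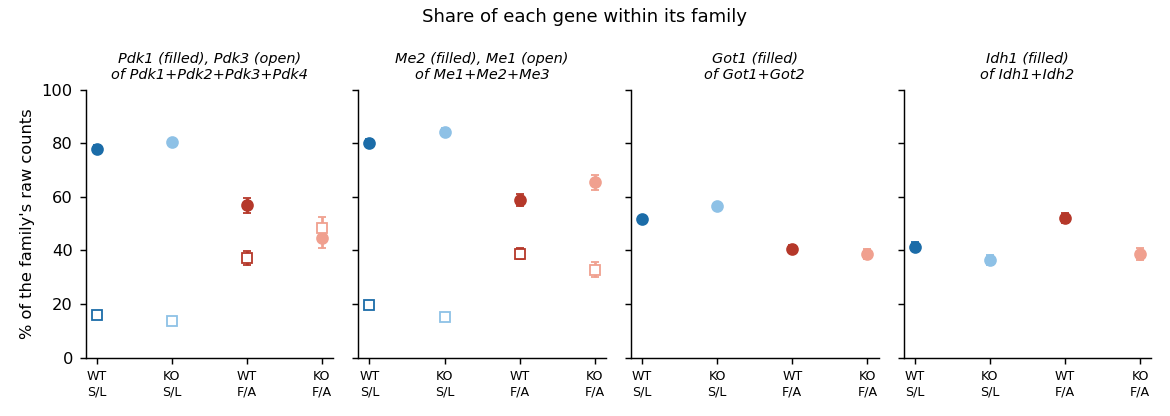
Share of a gene in the summed raw counts of its family (percent, axis from 0 to 100) in the 4 libraries, with exact 95% binomial intervals that cover counting error only. The share of Pdk1 is near 80% in serum/LIF and 56.9% and 44.8% in F/A, where that of Pdk3 is higher.

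The phosphatases had few counts. Pdp1 had 158 raw counts in both WT libraries, 133 in Cripto KO serum/LIF and 218 in Cripto KO F/A, with log2 changes of 0.12 in WT and 0.63 in Cripto KO, neither called. Pdp2, on chromosome 8 from 107115368 to 107120736, had 175, 136, 170 and 74 raw counts in WT serum/LIF, WT F/A, Cripto KO serum/LIF and Cripto KO F/A. The F/A Cripto KO library was the low one, and Pdp2 fell in that transition by 1.20 on the log2 scale (ratio 0.436, interval 0.297 to 0.625), while the WT value of -0.24 was not called. Pdp1 took 74.7% (66.8% to 81.5%) of the counts of the pair in F/A Cripto KO, and between 43.9% and 53.7% in the other libraries.

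None of the 5 subunits of PDH was called in a comparison. Of all genes, 20.9% fell and 22.0% rose in WT, and 18.5% fell and 19.3% rose in Cripto KO. Between the genotypes, 3.18% of all genes were called higher and 3.78% lower in Cripto KO in F/A, and 1.74% and 1.88% in serum/LIF. Pdhb, the beta chain of E1, had the lowest log2 changes of the 5, and it had 3053 raw counts in WT serum/LIF, 1568 in WT F/A, 3566 in Cripto KO serum/LIF and 1838 in Cripto KO F/A. Its log2 changes were -0.86 in WT and -0.90 in Cripto KO, with intervals of 0.517 to 0.585 and 0.497 to 0.575 on the ratio. Pdha1, the alpha chain, changed by -0.30 and -0.28, and Pdhx, which anchors the E3 enzyme in the complex, by -0.49 and -0.40. Dlat, the E2 acetyltransferase, had values of -0.22 and -0.05, and Dld, the E3 dehydrogenase shared with the oxoglutarate complex, had 0.02 and 0.43. In exons, Pdha1 overlaps Map3k15 on the other strand over 603 bases (16.0% of its exonic length), and whether the counting used strand is not given in the sources used here.

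Of the 11 cycle enzymes of the matrix, 1 fell in WT (9.09%, beside 20.9% of all genes) and 0 rose (beside 22.0%). In Cripto KO 0 were called, beside 18.5% of all genes lower and 19.3% higher. Fumarase, encoded by Fh1 on chromosome 1 from 177530505 to 177555766, hydrates fumarate to malate. It had 4002 raw counts in WT serum/LIF, 1353 in WT F/A, 2975 in Cripto KO serum/LIF and 2082 in Cripto KO F/A. WT F/A was the lowest and WT serum/LIF the highest of the 4, so that Fh1 fell by 1.46 on the log2 scale in WT (ratio 0.364, interval 0.342 to 0.387), and its value in Cripto KO was -0.44 (ratio 0.735, 0.684 to 0.789). The difference between the transitions was 1.01 ± 0.07 (counting SE), higher in Cripto KO, and 0.81 without the trend with transcript length.

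The other 10 matrix enzymes lay between -0.79 and 0.31 in WT and between -0.63 and 0.68 in Cripto KO. Idh3g, a regulatory subunit of the NAD-linked isocitrate dehydrogenase, was at -0.79 in WT and -0.24 in Cripto KO, its partner Idh3b at -0.40 and 0.00, and the catalytic Idh3a at -0.34 and -0.54. Ogdh, the E1 of the oxoglutarate dehydrogenase complex, was at -0.78 and -0.63, whereas Dlst, its E2, was at 0.31 and 0.68 with both intervals above 1. Mdh2, the mitochondrial malate dehydrogenase, was at -0.76 and 0.02, and citrate synthase (Cs) at -0.24 and -0.11. The succinyl-CoA ligase subunits differed among themselves, with Suclg1, the alpha subunit, at -0.66 and 0.26, Suclg2, the GTP-specific beta subunit, at -0.09 and 0.03, and Sucla2, the ATP-specific one, at 0.05 and 0.10.

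**Figure D3:**
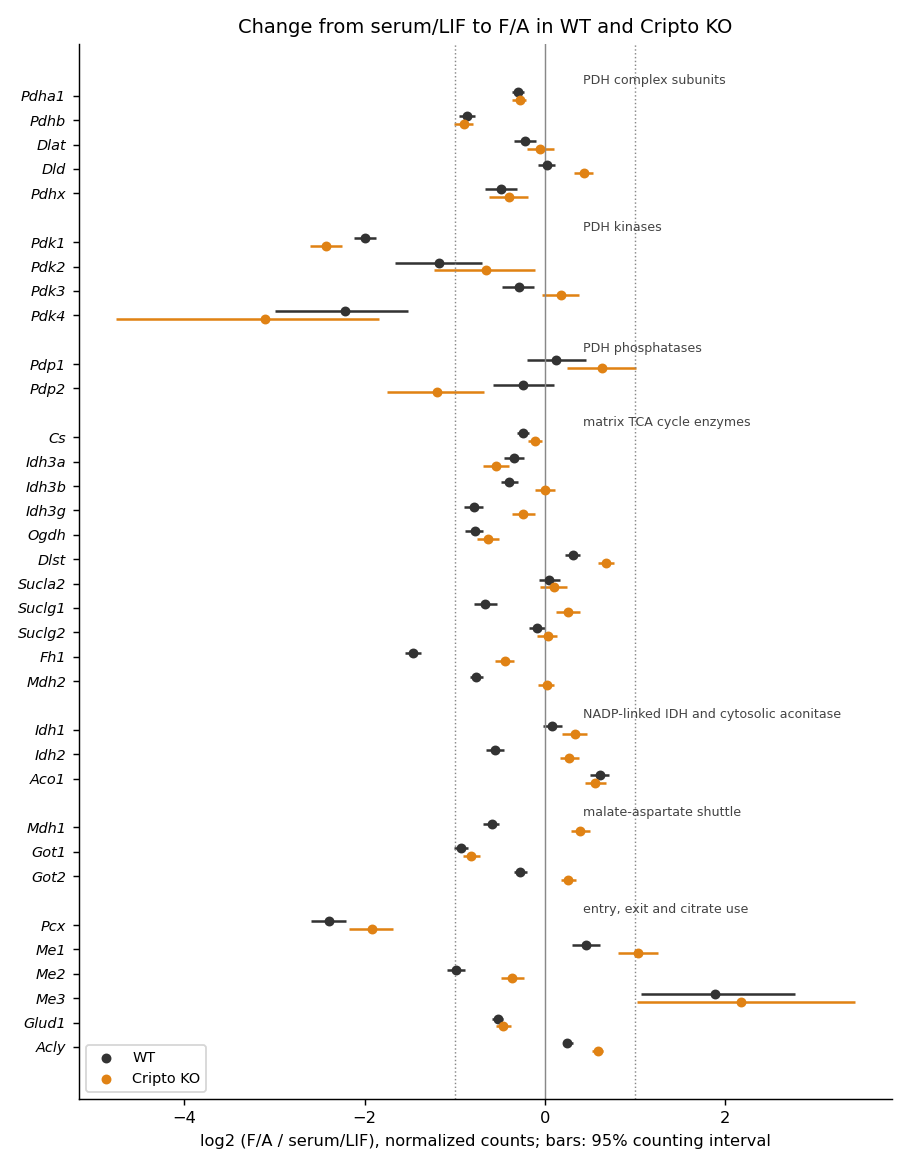
Log2 ratio of F/A to serum/LIF for each of the 34 genes in WT (black) and Cripto KO (orange), with 95% counting intervals and dotted lines at 2-fold. The genes beyond the lines on the left are mainly Pdk1, Pdk4 and Pcx in both genotypes, with Fh1 and Pdk2 in WT and Pdp2 in Cripto KO; most orange points lie to the right of the black ones.

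Among the genes that move carbon into and out of the cycle, Pcx had the lowest log2 change. Pcx, pyruvate carboxylase, on chromosome 19 from 4510472 to 4621752, had 1422 raw counts in WT serum/LIF, 255 in WT F/A, 1192 in Cripto KO serum/LIF and 322 in Cripto KO F/A. Both F/A libraries were several-fold below both serum/LIF libraries, and Pcx fell by 2.40 in WT (ratio 0.189, interval 0.165 to 0.216) and by 1.92 in Cripto KO (0.264, 0.222 to 0.311) on the log2 scale. Glud1, glutamate dehydrogenase, was at -0.52 and -0.46, and Acly, which splits citrate in the cytosol for lipid synthesis, at 0.25 and 0.59, none of them called.

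The 3 malic enzymes, which turn malate into pyruvate, did not move alike. Me3, the mitochondrial NADP-linked form on chromosome 7 from 96780902 to 97002869, had 17 raw counts in WT serum/LIF, 50 in WT F/A, 10 in Cripto KO serum/LIF and 40 in Cripto KO F/A. It was low in every library and rose by 1.89 in WT (ratio 3.70, interval 2.10 to 6.84) and by 2.18 in Cripto KO (4.54, 2.03 to 10.9) on the log2 scale, and 569 bases (3.9%) of its exons overlap a gene on the other strand. Me1, the cytosolic form on chromosome 9 from 86474970 to 86589947, had 609, 787, 348 and 732 raw counts in the same order. The Cripto KO serum/LIF library was the low one, and the rise of 1.03 in Cripto KO was called (ratio 2.05, interval 1.76 to 2.38) while the 0.46 in WT was not. Me2, the mitochondrial NAD-linked form, had 2500, 1191, 1917 and 1464 counts, and its WT value of -0.99 (ratio 0.504, interval 0.470 to 0.541) lay just short of 2-fold. Its value in Cripto KO was -0.36. Me2 took 80.0% and 84.3% of the counts of the 3 malic enzymes in serum/LIF and 58.7% and 65.5% in F/A, and Me1 took 19.5% and 15.3% against 38.8% and 32.7%, WT first.

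The transaminases and Mdh1 belong to the malate-aspartate shuttle, which carries reducing power into mitochondria. Got1, the cytosolic aspartate transaminase, had 3906, 1887, 4260 and 2350 raw counts in WT serum/LIF, WT F/A, Cripto KO serum/LIF and Cripto KO F/A, and its log2 changes were -0.93 and -0.82. Got2, the mitochondrial form, had 3658, 2774, 3252 and 3732 counts and changes of -0.27 and 0.26. The share of Got1 in the pair was 51.6% (50.5% to 52.8%) and 56.7% (55.6% to 57.8%) in serum/LIF against 40.5% (39.1% to 41.9%) and 38.6% (36.9% to 40.4%) in F/A. Thus the cytosolic transcript gave less of the pair in both F/A libraries. Mdh1, the cytosolic malate dehydrogenase, had 2602, 1636, 1928 and 2404 counts, with changes of -0.59 and 0.39.

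The NADP-linked isocitrate dehydrogenases also differed from each other. Idh1, the cytosolic form, had 1393, 1390, 1082 and 1370 raw counts in WT serum/LIF, WT F/A, Cripto KO serum/LIF and Cripto KO F/A, whereas Idh2, the mitochondrial form, had 1971, 1271, 1885 and 2176. WT F/A was the lowest library for Idh2 but not for Idh1, and Idh1 took 52.2% (50.3% to 54.1%) of the pair there and 38.6% (36.4% to 40.9%) in Cripto KO F/A, against 41.4% and 36.5% in serum/LIF. The cytosolic aconitase Aco1, which also acts as an iron-regulatory protein, was at 0.61 in WT and 0.56 in Cripto KO, with both intervals above 1 and neither value called.

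Promoter sequence is shown for the genes that fell in both transitions. The windows are the 250 bases before the upstream-most start that RefSeq gives on GRCm38.p6, a later build than that of the counts, written 5′ to 3′ on the strand of the gene. Capitals mark CACGTG, the E-box bound by Myc-family factors, and ACGTG, the core of the hypoxia response element, which CACGTG contains.
Pdk1 (chr2:71872974-71873223, + strand): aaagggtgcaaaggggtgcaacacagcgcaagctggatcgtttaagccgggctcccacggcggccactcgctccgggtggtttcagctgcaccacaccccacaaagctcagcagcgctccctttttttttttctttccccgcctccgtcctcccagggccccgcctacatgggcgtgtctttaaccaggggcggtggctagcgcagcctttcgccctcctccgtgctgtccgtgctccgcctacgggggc
Pdk4 (chr6:5496279-5496528, - strand): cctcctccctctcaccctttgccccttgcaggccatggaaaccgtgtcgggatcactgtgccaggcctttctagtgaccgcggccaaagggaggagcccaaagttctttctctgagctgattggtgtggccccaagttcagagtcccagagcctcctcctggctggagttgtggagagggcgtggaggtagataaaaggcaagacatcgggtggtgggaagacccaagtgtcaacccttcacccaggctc
Pcx (chr19:4510222-4510471, + strand): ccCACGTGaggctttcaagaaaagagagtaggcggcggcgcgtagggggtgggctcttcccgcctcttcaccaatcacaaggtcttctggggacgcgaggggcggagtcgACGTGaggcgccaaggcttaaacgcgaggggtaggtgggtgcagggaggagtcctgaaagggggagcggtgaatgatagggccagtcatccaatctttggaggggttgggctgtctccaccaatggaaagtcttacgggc

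Of the genes that fell in both transitions, Pcx alone had either motif in its window, with 1 CACGTG and 1 further ACGTG, and neither was found in those of Pdk1 and Pdk4. RefSeq windows of 300 bases, from 250 before to 50 after a start, were at hand for 31 of the 34 genes (41 windows, not for Idh3a, Me2 and Pdp1). CACGTG, searched on both strands, was in 14.6% of the 41 windows and in 7.15% of all 32851 mouse windows, ACGTG in 36.6% and 19.6%, and AAGGTCA, the site of Esrrb and related receptors, in 4.88% and 4.72%. Windows of 1 gene overlap, so the CACGTG windows came from 4 genes, Ogdh, Pcx, Pdk2 and Pdp2, and the ACGTG windows from 10. A match of letters is not a binding site, and no match in a window of this size says nothing of a factor elsewhere.

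The genotypes were compared within each culture, which uses the same libraries as the transitions. In F/A, none of the 34 genes was called higher or lower in Cripto KO than in WT, beside 3.18% of all genes higher and 3.78% lower. Among all genes with a mean raw count of at least 500, which 29 members reached, these shares were 0.645% and 1.38%. The lack of calls is thus close to that of other abundant genes. Most values nevertheless leaned 1 way, with a median of 0.27 against 0.00 over all genes, 23 intervals above 1 (67.6%, beside 4026 of all 15462 genes) and 2 below (5.88%, beside 24.5%). At a mean raw count of at least 500, 75.9% of members and 37.2% of all genes had an interval above 1, and 3.45% and 34.1% one below. Idh2 (0.80), Suclg1 (0.70), Fh1 (0.64) and Mdh1 (0.59) had the highest log2 values, and Pdp2 (-0.82), Pdk4 (-0.81) and Pdk1 (-0.38) the lowest. In serum/LIF no gene was called either, beside 1.74% of all genes higher and 1.88% lower (0.39% and 0.15% at a mean raw count of at least 500). The median there was -0.07, the highest value was that of Pdhb (0.29) and the lowest that of Me1 (-0.69), with 7 intervals above 1 (20.6%, beside 20.1%) and 14 below (41.2%, beside 20.4%).

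The transitions of the genotypes share no library and were set against each other by subtracting the WT log2 change from that of Cripto KO. The difference was above 0 for 28 of the 34 genes (82.4%, against 49.9% of all genes), with a median of 0.31 against 0.00. Its 95% counting interval lay above 0 for 18 genes (52.9%, beside 24.6% of all genes), and below 0 for 3, Pdk1, Pdp2 and Idh3a (8.82%, beside 24.4%). Among genes with a mean raw count of at least 500 the members and all genes had 58.6% and 35.7% above 0, and 6.90% and 34.9% below. A difference of at least 1 was reached by Fh1 alone (2.94% of the 34, beside 7.68% of all genes), and by no gene in the other direction, beside 9.38%. Among all genes with a mean raw count of at least 500, a level that 29 members reached, these shares were 2.17% and 3.66%. The members therefore did not stand apart from other abundant genes in this count. Under total-count, TMM and DESeq2 scaling Fh1 stayed below 1, and Pdk4 reached 1 in the other direction. By role, the median was 0.54 for the 3 shuttle enzymes, 0.41 for the 6 genes of entry, exit and citrate use and 0.37 for the 11 matrix enzymes. It was 0.25 for the NADP-linked isocitrate dehydrogenases with Aco1, 0.09 for the 5 PDH subunits, 0.02 for the 4 kinases and -0.23 for the 2 phosphatases. With 1 culture per condition these differences cannot be set against the spread between cultures.

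**Figure D4:**
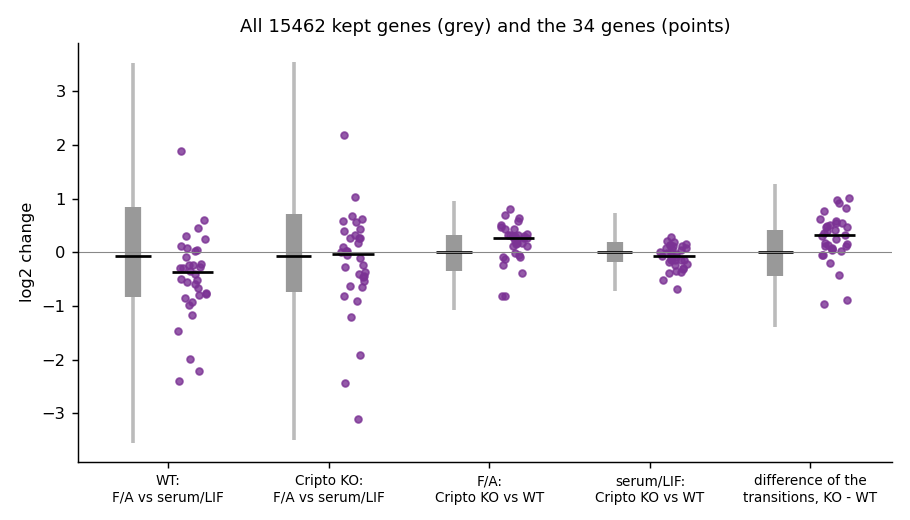
Log2 changes of the 34 genes (purple points, black line at their median) beside all 15462 kept genes (grey, thick bar from the 25th to the 75th percentile, thin bar from the 5th to the 95th, black line at the median) for the 4 comparisons and for the difference of the transitions. In both transitions all 34 points lie within the thin grey bar, and their median lies at 0.31 for the difference, where that of all genes is 0.00.

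Opposite signs in the transitions were seen for 7 genes (20.6%, beside 16.4% of all genes). For 4 of them, Suclg1, Idh2, Mdh1 and Got2, both counting intervals lay off 1 (11.8%, beside 4.73%). Among genes with a mean raw count of at least 500, the last shares were 13.8% of members and 8.44% of all genes. In raw counts, Suclg1 had 1411, 850, 1158 and 1392 in WT serum/LIF, WT F/A, Cripto KO serum/LIF and Cripto KO F/A. For all 4 genes the WT F/A library was the lowest and the Cripto KO F/A library was above its own serum/LIF library. None of these values was called.

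Transcript length moved with the difference of the transitions over the whole table. Across the 15424 kept genes with an annotated length, Spearman's rho between the difference and the median transcript length was -0.23, and it was -0.09 across the 34 genes, which all come from the same 4 libraries. With the length of the longest coding transcript the values were -0.31 and -0.39. After the running median over transcript length was taken off, the median difference of the 34 genes was 0.30, and 23 of them, against 50.1% of all genes, were above 0. Fh1 was then at 0.81, Mdh1 at 0.73, Pdk1 at -0.63 and Pdk4 at -0.92.

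**Figure D5:**
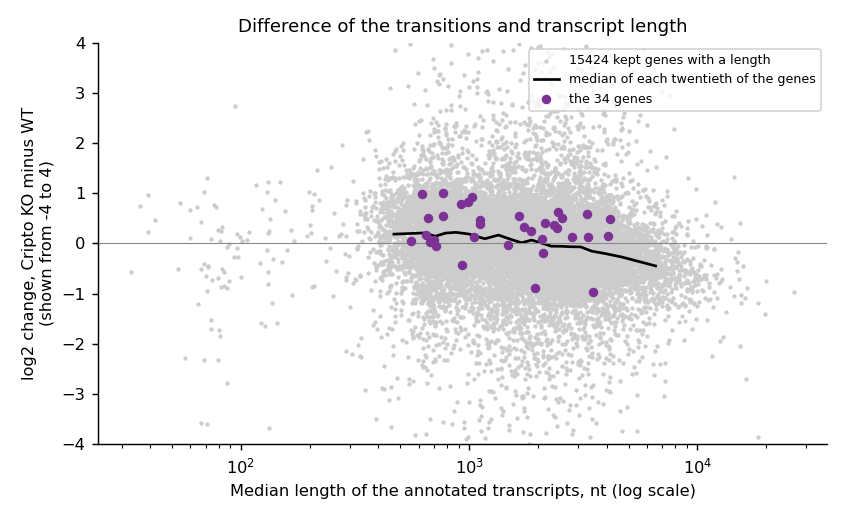
Difference of the log2 changes, Cripto KO minus WT, against the median length of a gene's annotated transcripts (log axis), for all kept genes with a length (grey), their median in 20 bins of equal gene number (black line) and the 34 genes (purple). The black line falls with length, and most purple points lie above 0 and above the line.

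The other genes of the pathway were read from a list of 30, of which 29 were kept. The list was chosen with earlier results of these data known, so the shares below only describe it. In the WT transition 12 of them fell and none rose, which was 41.4% beside the 20.9% of all genes that fell, with a median of -0.79. In Cripto KO 8 fell (27.6% beside 18.5%) and none rose, with a median of -0.32. Among those that fell in both were Ldhb, the lactate dehydrogenase subunit of oxidative tissues (-2.74 in WT and -2.61 in Cripto KO), Mpc1, a subunit of the mitochondrial pyruvate carrier (-1.68 and -1.81), Slc25a12, an aspartate-glutamate carrier (-2.27 and -2.07), and the glutaminase Gls2 (-2.79 and -2.38). Ogdhl, Dhtkd1 and Lipt1 also fell in both, with values of -1.10 and -1.06, -1.34 and -1.79, and -1.15 and -1.13. Sdhb (-1.24 and -0.36) and Sdhc (-1.32 and -0.75), subunits of succinate dehydrogenase, Mpc2 (-1.18 and -0.08) and Slc25a13 (2552 raw counts in serum/LIF and 1204 in F/A in WT, at the limit of the call, and -0.77 in Cripto KO) were called in WT alone. The difference between the genotypes was not tested for them. In the edgeR fit over both genotypes, 12 of the 29 were lower in F/A at an adjusted p under 0.05 (41.4%, beside 25.4% of all genes), and 0 were higher (beside 25.2%). At an unadjusted p under 0.05, 0 were higher as well, beside 27.6% of all genes.

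Pdha2, the retrogene copy of Pdha1, was also called lower in both, from 118 raw counts to 1 in WT and from 31 to 2 in Cripto KO, and it was called lower in Cripto KO serum/LIF than in WT. Reads of so close a copy can be shared with Pdha1, so its counts are uncertain. Ldha, the subunit that favours lactate, took 71.1% and 66.1% of the counts of the lactate dehydrogenase pair in serum/LIF and 90.2% and 93.7% in F/A, WT first, while its own log2 changes of -0.65 and 0.34 were not called. Pck1, which makes phosphoenolpyruvate from oxaloacetate, was the gene not kept, with 0 raw counts in both F/A libraries and 5 and 7 in serum/LIF.

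As a whole, the 34 transcripts took 0.424% and 0.418% of all counts in serum/LIF and 0.334% and 0.389% in F/A, WT first. Per kilobase of the median annotated transcript, Pdha1 was the most abundant of the 34 in all 4 libraries, at 5380 to 7130 normalized counts, and Me3 the least in serum/LIF, at 5.78 and 4.03. Pdk4 was the least in F/A, at 11.0 and 6.29. With the union of exons as the length, Pdhb (1950 in WT serum/LIF) took the first place in serum/LIF, Cs (1230) in WT F/A and Mdh2 (1560) in Cripto KO F/A. Me3 was then the least in every library.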

How the data were processed

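RNA of 4 cultures, 1 per condition, was sequenced. The authors aligned reads to mm9 (NCBIM37) with TopHat2 2.0.13, counted them per gene with HTSeq 0.6.1p1 and deposited whole-number raw counts. The strand option is not given in the sources used here. The authors also deposited a normalized signal, the full quantile-normalized counts of genes kept by a filter at 1 cpm. Columns were matched to cultures by name, 0 columns were left over and 0 rows named no gene. Symbols, lengths and overlaps came from a GENCODE annotation of NCBIM37, promoters from RefSeq on GRCm38.p6.

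The members, the other pathway genes, the markers and the rules were chosen with earlier results of these data known. Genes were named by rule: all 34 members, the other pathway genes called in either transition, and Tdgf1. Ldha, Pck1 and the single markers were named after their values were seen. Log2 ratios used the normalized values with 0 replaced by 0.5, and a call needed a 2-fold change and a 95% Clopper-Pearson interval on the same side of 1. The simulated replicates of the authors' own calling were not used, since they carry no error between cultures. Changes shared by the genotypes or cultures were tested on the raw counts as deposited by a quasi-likelihood fit of culture plus genotype in edgeR, TMM-scaled, with 1 residual degree of freedom and Benjamini-Hochberg adjustment over all kept genes. Ratios, intervals, calls and this fit were tested on simulated data. For intervals and calls these were Poisson counts of the WT libraries, without spread between cultures. For the fit they had a fixed dispersion, and neither a genotype effect nor a difference between the transitions. Neither simulation held the doubled counts of the F/A Cripto KO library. Raw depth was 15230856 to 17315442 counts per library, and the 15740587 of F/A Cripto KO were halved for the intervals. The intervals were narrow for abundant members and wide for Pdk4 and Me3.

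Alternatives were scaling by total counts, by the TMM factors of edgeR 4.0.16 or by DESeq2 1.42.0 size factors, run in R 4.3.3, a pseudocount of 5, no filter, a mean raw count of at least 50, a fold of 1.5, the fold alone, unhalved counts, and removal of the trend with transcript length as a running median (300 genes on each side). The edgeR fit, a mean raw count of at least 500 and the longest coding transcript as the length were added after seeing the data. Tables were read with pandas 2.3.3 in Python 3.11.15, intervals came from scipy 1.17.1 and numpy 2.4.6, and matplotlib 3.10.9 drew the figures. Protein sequences were not analysed here.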

Additional observations from a re-analysis of the deposited data

Results flagged for a closer look

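Members of the pathway whose log2 ratios of F/A to serum/LIF had opposite signs in WT and Cripto KO, with both counting intervals off 1, were Suclg1 (-0.66 in WT and 0.26 in Cripto KO), Idh2 (-0.55 and 0.27), Mdh1 (-0.59 and 0.39) and Got2 (-0.27 and 0.26). These differences were not tested, since no condition has a second library. All 4 kept their signs under the alternatives that were run, and the WT values nearest to 0 were -0.24, -0.18, -0.18 and -0.09 in the order above, after the trend with transcript length was removed.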

How the results depend on the processing

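Of 171 counts and medians recomputed under the alternatives, 147 stayed near the main value. A count had to stay within 1.5 times the main one. The median of a comparison had to stay between the medians of the members' lower and upper counting limits. That span is the width of a typical single gene's interval, not the error of a median. Of 136 values of called members none changed sign. Under total-count scaling, TMM factors and DESeq2 size factors, 0 members reached a difference of 1 higher in Cripto KO and 1, Pdk4, reached it lower. The median of the WT transition was -0.26 under DESeq2 size factors, -0.23 after removal of the running median over transcript length and -0.21 after removal of that over the longest coding transcript, and 0 members reached a difference of 1 higher in Cripto KO under either running median. At a mean raw count of at least 50, Me3 was not kept, which left 0 members called higher in WT and 1 in Cripto KO (beside 19.1% and 16.9% of genes). At a mean of at least 500, which kept 29 members, the counts were 0 higher and 3 lower in WT (beside 15.4% and 13.9% of 6670 genes) and 1 and 2 in Cripto KO (beside 869 of 6670 genes higher and 11.9% lower). At a fold of 1.5, 2 members were higher and 13 lower in WT (beside 29.6% and 31.7% of all genes), 5 and 8 in Cripto KO (26.2% and 27.2%), 4 and 1 in Cripto KO against WT in F/A (8.41% and 9.69%), and 0 and 1 in serum/LIF (4.60% and 4.53%). The median difference of the transitions ran from 0.25 to 0.33. The order of levels per kilobase changed with the length used. No paired analysis was possible because no condition has replicate numbers to pair, and the edgeR fit with genotype as a term is the nearest to one. Raw counts of 10 and 20 for Pdk4 in F/A and of 10 to 50 for Me3 limit the precision of their ratios.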
